A study of Mus musculus with 44 samples.

Results

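The difference between GFP-positive and GFP-negative cells of mouse calvarial osteoblast cultures was compared between early and late culture, gene by gene. Throughout, the split is log2 of the GFP-positive level minus log2 of the GFP-negative level of the same experiment, and the difference of splits is the day 17 split minus the day 7 split. A split of 1 is a 2-fold difference between fractions. The 36 arrays of sorted cells, of 44 arrays in all, were chosen by their titles, and they carry 12 RNA samples: 6 experiments, each with a GFP-positive and a GFP-negative fraction, each on array types A, B and C. The other 8 arrays, of unsorted cultures, were not compared here.

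At day 7 the cells came from pOBCol3.6GFP cultures grown in DMEM with fetal calf serum and no additions (Exp99, Exp101 and Exp103). At day 17 they came from pOBCol2.3GFP cultures grown in the same way to day 7 and then with ascorbic acid and beta-glycerophosphate (Exp100, Exp105 and Exp106). All cultures were prepared from newborn mice of 7 days, and 10 ug of RNA was hybridised for 16 h. The 2 transgenes drive GFP from fragments of the type I collagen promoter of different length, so the GFP-positive gate itself differed between the days. Day, transgene and additions therefore cannot be told apart in any difference described here. The labels give separate experiment names but do not say whether these were separate preparations of mice, and p-values speak only to the scatter of these samples, which may be technical. The source named in the labels is calvaria for both Exp106 fractions and the Exp101 GFP-negative fraction, and cell culture for the other sorted samples.

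As background, osteoblasts arise from fibroblast-like mesenchymal progenitors, fill the extracellular matrix with type I collagen and then mineralise it, and some become embedded as osteocytes. The longer promoter fragment is known to be active already in preosteoblastic cells, and the shorter one in mature, matrix-forming osteoblasts. Ascorbic acid is needed for collagen hydroxylation, and beta-glycerophosphate supplies phosphate for mineral.

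The labelled cell type was checked by its markers. The summed level of 6 osteoblast genes was 81530 to 212000 in day 7 GFP-negative samples and 98850 to 167800 in day 7 GFP-positive samples. It was 263000 to 281100 in day 17 GFP-negative samples and 358700 to 421600 in day 17 GFP-positive samples. These sums are mostly Col1a1 and Col1a2, which other mesenchymal cells also express. The more specific markers were low at day 7, with Dmp1 at 48.4 to 213 and Alpl at 276 to 582 over both fractions, and Ibsp at 35.8 to 458 in the negative and 109 to 1810 in the positive fraction. At day 17 Ibsp was 11500 to 25900 in the negative and 58000 to 102000 in the positive fraction. Macrophage genes were also present. The summed level of 8 of them was 7909 to 20250 in the day 7 negative and 1882 to 2596 in the day 7 positive fraction. At day 17 it was 37250 to 79730 in the negative and 11670 to 52320 in the positive fraction. The highest of these day 17 positive values, 52320, stood far above the middle one, 11870. Exp106 also correlated less with the other experiments (0.84 on array type A, where the others had 0.917 to 0.927). In bulk samples, fewer cells of a type and less RNA per cell cannot be told apart.

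The splits of single experiments resembled each other at day 17 more than at day 7. Across all 22099 probe sets tested, the Pearson correlation of splits was 0.155 to 0.323 between day 17 experiments, -0.01 to 0.042 between day 7 experiments and -0.009 to 0.06 between experiments of different days. It was highest on array type A, where the ranges of the days overlapped (0.312 to 0.707 at day 17 and 0.011 to 0.322 at day 7), and lowest on type C (0.048 to 0.107 and -0.01 to 0.013). These are correlations across probe sets, which are not independent, and both fractions of an experiment share its name and day. Of these probe sets, 12.1% to 13.1% had a split of at least 2-fold in each day 7 experiment, against 18.6% to 24.7% in each day 17 experiment. The fractions of an experiment were further apart late than early.

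The difference of splits passed for 49 of 22099 probe sets, or 0.222% (limma, adjusted p under 0.05). Of these, 7 were higher at day 17 (0.0317%) and 42 were lower (0.19%), so most called splits had moved towards the GFP-negative fraction. Counting 1 probe set a gene, 34 of 11680 genes passed (0.291%), 1 higher and 33 lower. With the experiment as a replicate block the count was 94 (0.425%), of which 15 were higher (0.0679%) and 79 lower (0.357%), and 42 probe sets passed in both fits. In all 49 the 3 day 17 splits lay apart from the 3 day 7 splits, as they did in 17.9% of all probe sets. Without Exp106 the count was 205, and 46 of the 49 still passed, while leaving out any other single experiment left 0 to 3 (limma, with 912 to 1114 unadjusted p-values under 0.05). Taken day by day, the day 17 split passed for 277 probe sets (1.25%) and the day 7 split for 0 (limma, with 398 unadjusted p-values under 0.05, and 0 and 725 with the block).

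**Figure D1:**
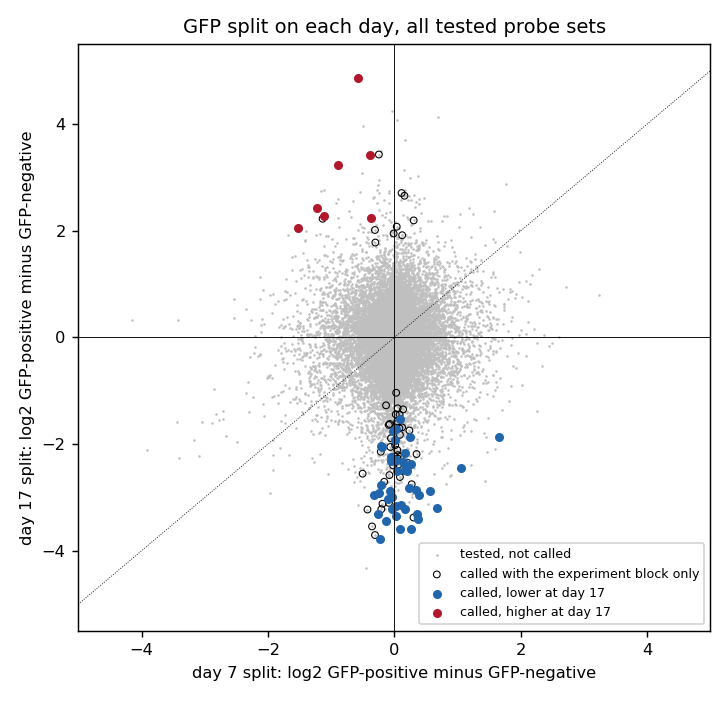
Day 7 split (x axis) against day 17 split (y axis), both as log2 GFP-positive minus GFP-negative, for the 22099 tested probe sets in grey, with the 42 lower (blue), the 7 higher (red) and those passing only with the experiment block (open circles); the dotted line marks equal splits. Most called probe sets lie near a day 7 split of 0, and all lie far from 0 at day 17.

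Most of these differences were splits that appeared. A split was counted as present from 0.5 log2 upwards. It appeared at day 17 in 40 of the 49 probe sets, turned from one sign to the other in 9 and vanished in 0. With a limit of 1.0 these counts were 44, 5 and 0. Over all tested probe sets the classes were 26.2% appearing, 3.47% turning and 8.01% vanishing, and none of the vanishing class passed. The classes rest on the fitted splits alone. The day 7 split passed for 0 probe sets by limma or with the block, so no test shows the early split of a turning or vanishing gene.

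The fraction that moved between days was mostly the GFP-positive one. Among the 42 lower probe sets the GFP-positive level fell in 41 and the GFP-negative level rose in 27, and both happened in 26. The larger move was in GFP-positive cells for 32 of 42. The median change between days was -2.33 log2 in GFP-positive and 0.40 log2 in GFP-negative cells. Among the 7 higher probe sets the medians were 1.78 and -2.03 log2.

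**Figure D2:**
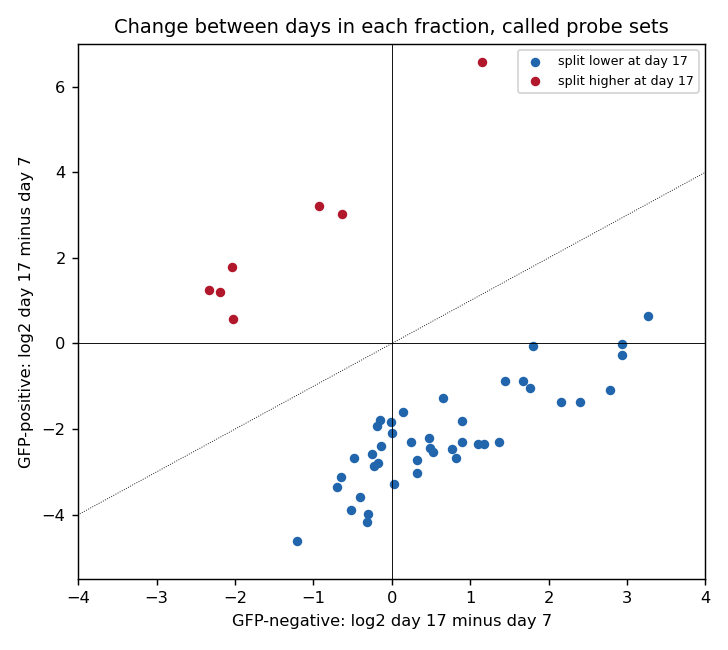
Change between days in GFP-negative (x axis) and GFP-positive cells (y axis), both as log2 day 17 minus day 7, for the 49 called probe sets; the dotted line marks equal change. The 42 lower probe sets (blue) lie below it and mostly at negative GFP-positive change, and the 7 higher ones (red) lie above it.

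Sfrp2 and Ccn3, secreted regulators of Wnt and growth factor signalling, were among the largest falls. Sfrp2, a secreted Wnt antagonist, had levels of 2112, 2409 and 5874 in day 7 GFP-negative and 2635, 3905 and 6429 in day 7 GFP-positive samples. At day 17 it had 12870, 16700 and 21360 in GFP-negative and 1231, 1339 and 2217 in GFP-positive samples. The fractions overlapped early, while late every GFP-negative sample was far above every GFP-positive one. Its split went from 0.38 to -3.40, a difference of -3.78 ± 0.61 (SE, n = 3 experiments a day; limma adjusted p = 0.0390). The negative fraction rose by 2.41 log2 and the positive fraction fell by 1.37. Ccn3, a matricellular protein of the CCN family, went from a split of 0.35 to -3.31 (difference -3.66 ± 0.54, limma adjusted p = 0.0327). Here the larger move was in the positive fraction, which fell by 2.29 log2 while the negative fraction rose by 1.37. Gdf10, a member of the BMP family, had a difference of -2.96 ± 0.43. The receptor Tgfbr2 had -1.63 ± 0.26, the smallest in size among the 42 lower probe sets. Of 62 tested genes of a Wnt, BMP and TGF-beta list, 4 were lower and 0 higher by limma, against 0.283% and 0.00856% of all genes. The median difference over the list was -0.41, beside -0.02 over all 11680 genes tested. With the block, 4 were lower and 1, the BMP and activin pseudoreceptor Bambi, was higher, against 0.497% and 0.0685% of all genes (1.89 ± 1.03 without the block, block-adjusted p = 0.0462).

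Several matrix and adhesion genes were also lower. Edil3, an integrin ligand, had levels of 19950, 20350 and 33330 in day 7 GFP-negative and 23680, 28270 and 34370 in day 7 GFP-positive samples. At day 17 it had 14420, 19670 and 24570 in GFP-negative and 993.3, 1616 and 2289 in GFP-positive samples. Only the late positive fraction stood apart. The difference of splits was -3.86 ± 0.46 (limma adjusted p = 0.0161), the positive fraction having fallen by 4.17 log2, and its other probe sets gave -3.19 and -3.01. Ogn, a small leucine-rich proteoglycan, had a difference of -2.71 ± 0.45, and Islr one of -1.86 ± 0.31. Of 31 tested genes of a fibroblast and progenitor list, 3 were lower by limma and 7 with the block, against 0.283% and 0.497% of all genes. In either fit 0 were higher. Sfrp2 is one of these 3 and was counted in the Wnt, BMP and TGF-beta list too, while Edil3 is not on the fibroblast and progenitor list. The median difference was -1.18, from a median split of 0.04 at day 7 to -1.27 at day 17. In 23 of the 31 the splits of the days did not overlap, all of them lower, where 20.1% of all genes had no overlap and 11.0% were lower without overlap. Not every member moved: Pdgfra, a receptor of mesenchymal progenitors, had a difference of -0.20 ± 0.35, and Gsn one of 0.28 ± 0.60.

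Both type VIII collagen genes were lower. Col8a1, a short-chain network collagen, had levels of 6080, 9258 and 14480 in day 7 GFP-negative and 11320, 15280 and 15330 in day 7 GFP-positive samples. At day 17 it had 16610, 18960 and 25410 in GFP-negative and 1704, 2254 and 5053 in GFP-positive samples. Its split went from 0.57 ± 0.40 to -2.88 (difference -3.44 ± 0.56, limma adjusted p = 0.0390). By the limit of 0.5 it turned and by that of 1.0 it appeared, and its day 7 split did not pass. The split of Col8a2 went from -0.21 to -2.76 (difference -2.55 ± 0.38, limma adjusted p = 0.0327). The type I collagen genes had no such difference: Col1a1 gave 0.11 ± 0.50 and Col1a2 0.12 ± 0.40. Both were among the brightest probe sets. After quantile normalisation 5 of the 6 day 17 values of Col1a1 were identical at 131700. Those of Col1a2 lay between 110900 and 121400, with ties among them. A split could therefore hardly be seen in either gene at day 17. Of 31 tested collagen and collagen processing genes 2 were lower and 0 higher by limma, against 0.283% and 0.00856% of all genes, and 3 were lower with the block, against 0.497%. In 13 of them the splits of the days did not overlap, 9 lower and 4 higher, against 11.0% and 9.08% of all genes. Among those higher, Col11a2 had 4.03 ± 0.82 (limma adjusted p = 0.0944) and Col13a1 2.95 ± 0.88 (limma adjusted p = 0.406).

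Among contractile genes of smooth muscle and pericytes, 1 passed by limma. Tagln, an actin-binding protein, had levels of 19380, 19680 and 20360 in day 7 GFP-negative and 19730, 21760 and 24340 in day 7 GFP-positive samples. At day 17 it had 7243, 15750 and 17740 in GFP-negative and 2138, 2309 and 3060 in GFP-positive samples. The difference was -2.48 ± 0.42 (limma adjusted p = 0.0415), and the positive fraction fell by 3.13 log2. Acta2, the smooth muscle actin, chosen after its values were seen, had -1.66 ± 0.30 (limma adjusted p = 0.0572, block-adjusted p = 0.0341, and 0.0351 by limma without Exp106). Csrp2 had -2.33 ± 0.80 (limma adjusted p = 0.570) and passed with the fixed block (adjusted p = 0.0188) and without Exp106 (0.0248), but not with a random block (0.0757). The summed level of 4 smooth muscle markers was 43990 to 57490 in both day 7 fractions, 31040 to 46810 in the day 17 negative fraction and 12410 to 13760 in the day 17 positive fraction. Of 21 tested genes of that list 1 was lower by limma and 3 with the block, against 0.283% and 0.497% of all genes. The median difference was -0.60, with 14 genes below 0 and 7 above. Myh11, the smooth muscle myosin, had 0.07 ± 0.33, and Cspg4, a pericyte proteoglycan, had 2.98 ± 1.74.

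Several further falls were of genes with other roles. Rhoj, a small GTPase, had a difference of -3.40 ± 0.48, and in GFP-positive cells it fell by 4.61 log2, more than the other named genes. Its other probe set gave a smaller difference, -1.48 ± 0.30 (limma adjusted p = 0.0944). Meox2, a homeobox transcription factor, had -3.35 ± 0.51. Meg3, an imprinted long non-coding RNA, had -3.32 ± 0.50 on its main probe set, but another probe set of it gave 0.19 ± 0.65. Mxra7 had -3.38 ± 0.53 on its main probe set but -0.58 ± 0.56 on another. Egfl6, a secreted protein with EGF repeats, had -3.88 ± 0.56. In Egfl6 the larger move was in the negative fraction, which rose by 2.78 log2 while the positive fraction fell by 1.09. That was so in 10 of the 42 lower probe sets, those of Sfrp2 and C1s1 among them.

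The complement and C1q-related genes held both a turning and an appearing split. C1qtnf3, a secreted C1q-like protein, had levels of 1025, 1187 and 1407 in day 7 GFP-negative and 2233, 2683 and 2695 in day 7 GFP-positive samples. At day 17 it had 1284, 2328 and 3217 in GFP-negative and 206.1, 369.2 and 626.9 in GFP-positive samples. The fraction with the higher level was thus the positive one in all 3 early experiments and the negative one in all 3 late ones. Its split turned from 1.06 to -2.44 (difference -3.50 ± 0.58, limma adjusted p = 0.0390). C1s1, a protease of the classical pathway, had a split of -0.23 and then -3.77 (difference -3.54 ± 0.57). The import receptor Ipo13 turned from 1.65 to -1.88 (difference -3.53 ± 0.59, limma adjusted p = 0.0399). Its day 17 split alone did not pass (limma adjusted p = 0.0555), the only such case among the 49. Of 17 tested complement genes 2 were lower and 0 higher by limma, against 0.283% and 0.00856% of all genes. The list's median difference was -0.075, and -0.454 without Exp106.

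**Figure D3:**
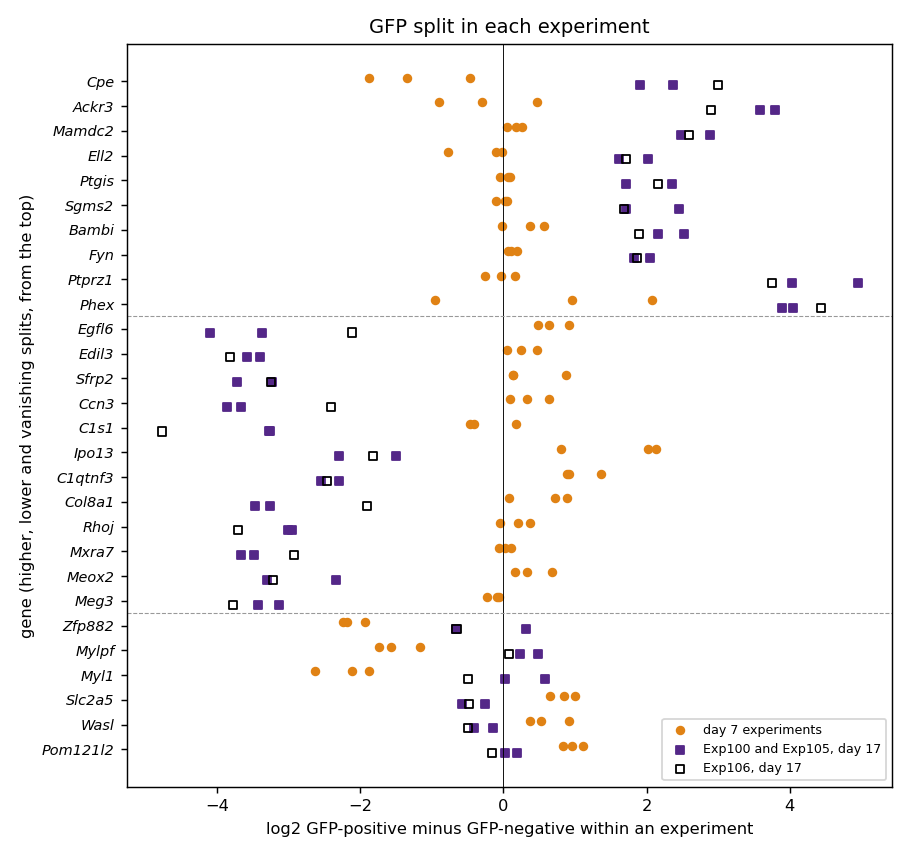
Split of each named gene in each experiment, as log2 GFP-positive minus GFP-negative (x axis), for genes with a higher (top), lower (middle) and vanishing split (bottom); orange circles are day 7 experiments, filled squares Exp100 and Exp105, open squares Exp106. The day 7 points of Ptprz1 come from levels near the lowest intensity. In every gene drawn the day 7 and day 17 points do not overlap. This was required when the higher and lower genes other than Ptprz1 and Phex were chosen. The vanishing group was chosen by fitted splits of at least 0.5 at day 7 and under 0.5 at day 17. Single experiments of Slc2a5 (-0.58 at day 17) and Wasl (0.37 at day 7) lie across that limit.

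Few splits rose by limma. Cpe, a carboxypeptidase that processes peptide hormones, had levels of 3986, 4267 and 4855 in day 7 GFP-negative and 1056, 1656 and 3516 in day 7 GFP-positive samples. At day 17 it had 1947, 2165 and 5128 in GFP-negative and 11360, 15830 and 19270 in GFP-positive samples. Its split turned from -1.23 to 2.43 (difference 3.66 ± 0.62, limma adjusted p = 0.0415). Another of its probe sets gave 3.36 ± 0.62, but 2 more gave 0.84 and -0.16. Without Exp106 its adjusted p was 0.0709.

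The other named genes that rose were chosen after their values were seen. Phex, a cell-surface peptidase involved in phosphate balance, had on one probe set a difference of 5.43 ± 0.89 (limma adjusted p = 0.0390). Its levels were 147.7, 445.3 and 457.5 in day 7 GFP-negative, 53.22, 297.9 and 422.7 in day 7 GFP-positive, 477.7, 887.3 and 957.4 in day 17 GFP-negative and 15700, 19040 and 37910 in day 17 GFP-positive samples. The late positive fraction was apart from every other sample. The second Phex probe set gave 3.43 ± 0.64 (limma adjusted p = 0.0605). A probe set of Gchfr, the feedback regulator of GTP cyclohydrolase, had 3.82 ± 0.60 (limma adjusted p = 0.0378). The probe set that stands for Gchfr in the counts of genes is another one, and it did not pass by limma. A probe set of Ppp1r13b, a regulator of p53, had 3.57 ± 0.58, while its other probe set gave -0.65 ± 0.93. The remaining 3 of the 7 carry no gene name here. Ptprz1, a receptor phosphatase, had levels of 152.9 to 517.5 in the day 17 negative and 5677 to 8984 in the day 17 positive fraction. Its day 7 levels, 19.49 to 38.29, lay near the lowest intensity on the arrays, 10, so no size of the difference is read from them.

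A further set of rises passed with the experiment as a fixed block and not by limma on all 12 samples without it. Of these, Mamdc2, Ell2, Ptgis, Bambi and Fyn also passed by limma without Exp106, and Ackr3 with array types fitted apart. Mamdc2, Sgms2 and Bambi did not pass with a random block (adjusted p = 0.117, 0.109 and 0.302). The chemokine scavenging receptor Ackr3 went from a split of -0.25 to 3.43 (difference 3.67 ± 0.67, limma adjusted p = 0.0572, block-adjusted p = 0.0341). Ptgis, prostacyclin synthase, had 2.04 ± 0.39 (block-adjusted p = 0.0254), and the elongation factor Ell2 had 2.08 ± 0.47 (block-adjusted p = 0.0288). Mamdc2, Sgms2 (a sphingomyelin synthase) and the kinase Fyn had 2.50, 1.96 and 1.79. Another probe set gave the opposite sign for Ell2 (-2.26) and for Fyn (-1.82).

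**Figure D4:**
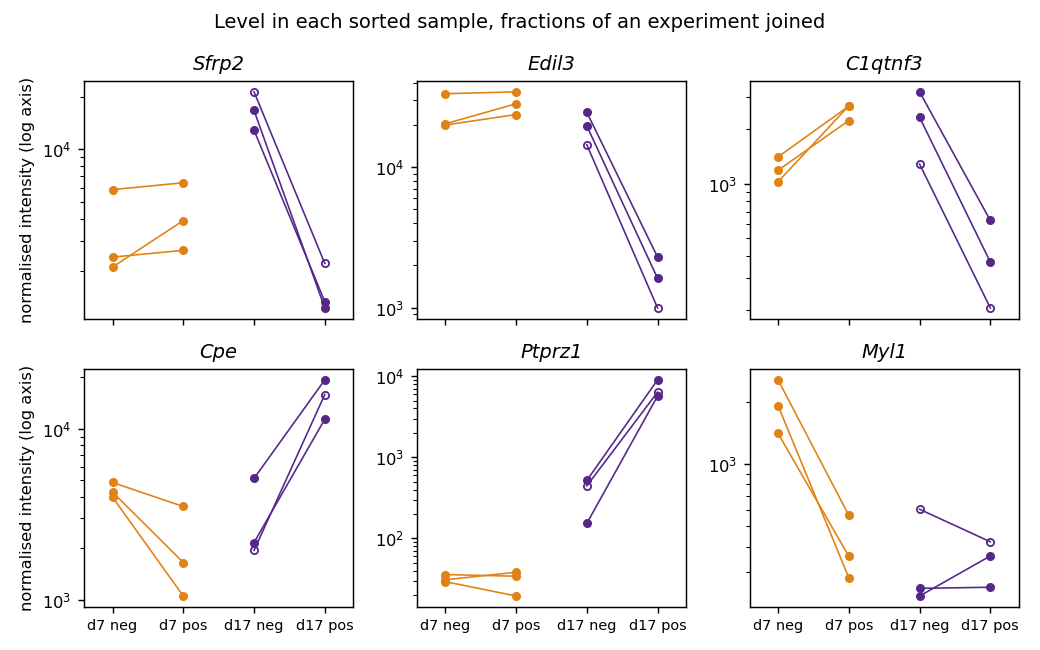
Normalised intensity (y axis, log scale) of 6 genes in GFP-negative (neg) and GFP-positive (pos) samples at day 7 (d7, orange) and day 17 (d17, purple); a line joins the fractions of an experiment and open circles are Exp106. Sfrp2, Edil3 and C1qtnf3 fall from neg to pos at day 17, Cpe and Ptprz1 rise there, and Myl1 falls in all 3 experiments at day 7 and in Exp106 at day 17.

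Single genes of bone formation had large but variable differences. Of 20 tested osteoblast and osteocyte genes 0 passed on their main probe set in either direction or fit, and the median difference was 0.61; Phex passed on its other probe set, as given above. In 10 of the 20 the splits of the days did not overlap, 8 of them higher, against 9.08% of all genes. Dmp1, a matrix protein of osteocytes, had levels of 122.0, 151.7 and 165.9 in day 7 GFP-negative, 48.38, 132.9 and 213.0 in day 7 GFP-positive, 163.5, 283.8 and 793.0 in day 17 GFP-negative and 594.1, 3594 and 8441 in day 17 GFP-positive samples. The wide late spread gave a difference of 3.12 ± 1.24 (limma adjusted p = 0.705). Ibsp, bone sialoprotein, had a split of 1.25 ± 0.89 at day 7, which passed in neither fit. At day 17 it had 2.31 ± 0.89, which passed with the block (adjusted p = 0.0152) but not by limma (adjusted p = 0.347). It rose in both fractions between days, and the difference of 1.06 ± 1.26 did not pass. On another Ibsp probe set the splits were 0.45 and 0.20. Alpl, the alkaline phosphatase needed for mineralisation, had a difference of 0.43 ± 0.54. Genes of the secretory pathway and endoplasmic reticulum had a median difference of 0.51 over 57 genes, 0 of which passed in either fit. In 26 of them the splits of the days did not overlap, all 26 higher, against 9.08% of all genes.

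Chemokine, adhesion and interferon genes were lower by median without passing by limma on their main probe sets. The chemokine Cxcl12 had a difference of -2.80 ± 0.76 (limma adjusted p = 0.299, block-adjusted p = 0.0199), and another of its probe sets gave 0.17. The adhesion receptor Vcam1 had -2.15 ± 0.67 on its main probe set and -2.64 ± 0.36 on another (limma adjusted p = 0.0327), which was named after its values were seen. Over 22 inflammatory genes the median difference was -0.80, and over 31 interferon and antigen presentation genes -0.75. In 19 of the 31 interferon genes the splits of the days did not overlap, 18 of them lower, against 11.0% of all genes. By limma 0 of either list passed.

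The 10 other lists (among them cell cycle, mitochondrial, glycolysis, endothelial and adipocyte genes) had 0 passing genes by limma and medians from -0.60 to 0.38. With the block, Fmod, a proteoglycan of cartilage and tendon (-1.78 ± 0.36, block-adjusted p = 0.0344), and Gas1, a growth arrest gene (-1.83 ± 0.36, block-adjusted p = 0.0199), passed there, Fmod also by limma without Exp106 (adjusted p = 0.0335). Without Exp106 the median difference of the chondrocyte list went from 0.12 to -0.18 and that of the immediate early list from -0.11 to 0.11.

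No gene of the vanishing class passed, and the genes given here had the smallest unadjusted block p-values in it. Myl1, a myosin light chain of skeletal muscle, had levels of 1406, 1916 and 2551 in day 7 GFP-negative, 282.4, 358.8 and 565.2 in day 7 GFP-positive, 230.7, 251.2 and 605.3 in day 17 GFP-negative and 254.3, 360.1 and 421.6 in day 17 GFP-positive samples. The early negative fraction was apart, and the other groups overlapped. Its split went from -2.21 to 0.03 (difference 2.24 ± 0.65, limma adjusted p = 0.369), and that of Mylpf, another muscle myosin light chain, from -1.49 to 0.26. Over 16 tested skeletal muscle genes the median split was -0.38 at day 7 and 0.08 at day 17, and 6 of 16 had splits without overlap, all higher, against 9.08% of all genes. Summed skeletal muscle markers were 12050 to 18750 in the day 7 negative and 7449 to 9924 in the day 7 positive fraction, and 7176 to 7360 and 4989 to 6280 at day 17. Their part in the vanished splits was not tested. The zinc finger gene Zfp882 went from -2.12 to -0.33, and Slc2a5, Wasl and Pom121l2 from 0.83, 0.60 and 0.97 to -0.44, -0.35 and 0.01.

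Macrophage genes kept a split on both days. Over 38 tested genes the median split was -1.34 at day 7 and -1.13 at day 17, and 0 had a difference that passed. Lyz2, the macrophage lysozyme, had levels of 3944, 6634 and 10920 in day 7 GFP-negative, 439.6, 564.3 and 772.5 in day 7 GFP-positive, 14610, 24180 and 35360 in day 17 GFP-negative and 4710, 5349 and 17890 in day 17 GFP-positive samples. The single high late positive sample was that of Exp106. The median macrophage split was -2.11 for Exp100 and -1.49 for Exp105 but 0.25 for Exp106. Without Exp106 the list's median difference was -0.34 instead of 0.17.

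**Figure D5:**
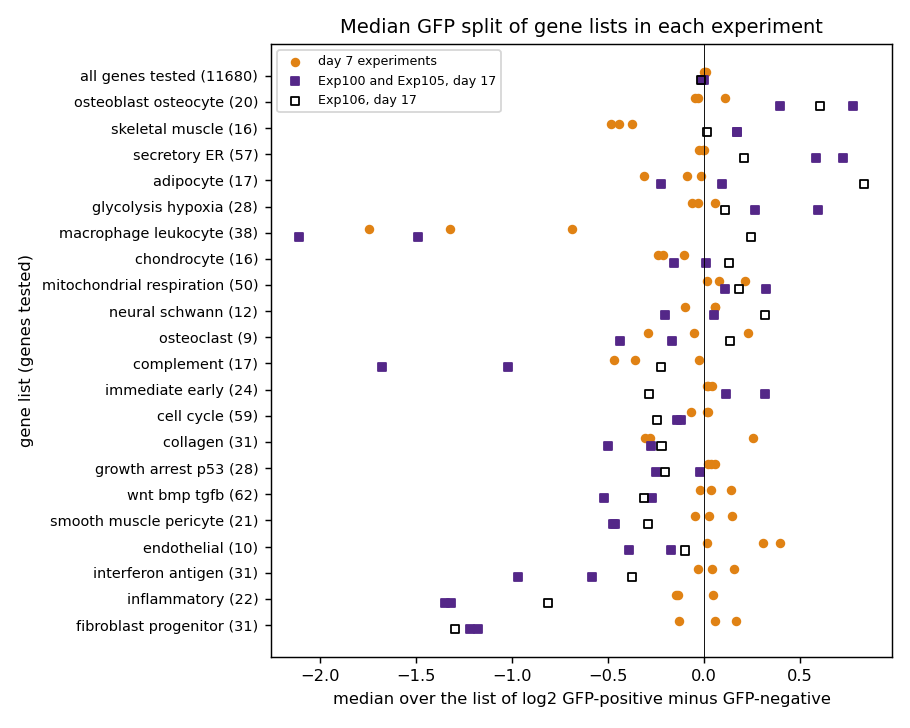
Median split of each gene list in each experiment, as log2 GFP-positive minus GFP-negative (x axis), with the number of genes tested in brackets; orange circles are day 7 experiments, filled squares Exp100 and Exp105, open squares Exp106. The fibroblast and progenitor, inflammatory and interferon lists move to the left at day 17, the osteoblast and secretory lists to the right, and macrophage medians are low on both days except in Exp106.

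The promoters of the called genes were searched for the runt core TGTGGT, bound by Runx factors of osteoblasts, and the AP-1 site TGACTCA, on both strands. The windows run from 250 bases before to 50 bases after the start in the RefSeq table (GRCm38.p6), which matched 31 of 38 genes lower at day 17. The runt core was in 9 of their 48 windows (18.8%) against 16.8% of all 32851, and the AP-1 site in 4 (8.33%) against 5.2%. With the genes lower by the block added, the runt core was in 10 of 84 windows (11.9%), so its share lay on either side of that of all windows. Among genes higher at day 17, 1 of 3 windows held the runt core by limma and 3 of 13 with the block added, too few for a share to be read. Shown are a gene whose split appeared, one whose split turned and one whose split rose on a probe set. Each holds the runt core, in capitals (on the other strand it reads ACCACA), while most windows of the called genes held none. Meox2 lies at chr12:37108290-37108589, C1qtnf3 at chr15:10952082-10952381 and Gchfr at chr2:119167538-119167837, all on the plus strand.
Meox2: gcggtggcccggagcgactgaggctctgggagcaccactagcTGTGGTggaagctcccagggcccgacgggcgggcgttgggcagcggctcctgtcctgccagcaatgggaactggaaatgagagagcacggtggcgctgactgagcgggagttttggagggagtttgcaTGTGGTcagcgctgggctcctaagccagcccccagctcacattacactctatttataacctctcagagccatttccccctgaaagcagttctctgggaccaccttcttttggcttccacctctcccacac
C1qtnf3: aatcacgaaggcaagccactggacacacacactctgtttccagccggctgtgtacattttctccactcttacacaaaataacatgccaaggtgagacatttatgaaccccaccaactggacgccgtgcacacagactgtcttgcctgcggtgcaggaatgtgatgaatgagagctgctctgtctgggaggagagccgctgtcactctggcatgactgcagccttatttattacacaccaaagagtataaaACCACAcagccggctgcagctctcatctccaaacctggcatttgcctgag
Gchfr: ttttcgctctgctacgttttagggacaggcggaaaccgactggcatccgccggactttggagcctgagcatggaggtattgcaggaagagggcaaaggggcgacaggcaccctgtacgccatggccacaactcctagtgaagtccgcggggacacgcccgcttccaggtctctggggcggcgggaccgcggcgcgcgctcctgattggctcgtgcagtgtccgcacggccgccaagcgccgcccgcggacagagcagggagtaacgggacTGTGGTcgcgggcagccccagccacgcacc
Meox2 holds 2 matches and the others 1 each. A match of letters describes the window and shows no binding.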

How the data were processed

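The values are array intensities deposited by the authors, 1 per probe set on array types A, B and C; their background correction and scaling are not given in the sources used here. Trimmed mean intensity (2% off each end) was 1069.3 to 1722.8 per array, and the number of arrays limits the precision. To each value 32 was added and log2 taken, and these log2 values were quantile normalised within each array type. Levels given are the normalised values turned back from log2, less 32. Probe sets above the array median on at least 3 of 12 sorted arrays were kept (22099 of 36701). A model of 4 groups was fitted over 12 RNA samples (limma 3.58.1 in R 4.3.3, variance trend, Benjamini-Hochberg over all probe sets), and checked on simulated data. A gene stands for 1 tested probe set, the first by array type A, B, C and then the brightest. Fractions were paired by experiment name: deviations of same-named samples correlated at 0.294 to 0.673 on array A, 0.108 to 0.506 on B and 0.0186 to 0.426 on C. For the GFP-positive sample of Exp100 a differently named GFP-negative sample of that day correlated more on every array type. The values were 0.559 against 0.469 on A, 0.309 against 0.273 on B and 0.16 against 0.141 on C. The same held for Exp101 on B (0.171 against 0.108), so the check does not bear out the pairing in every case. The members and lists were chosen with earlier results of these data known. Named genes were the largest 12 differences a direction among called genes whose splits of the days did not overlap. These were filled with genes called only with the block, under the same condition. Added were up to 6 a class, 2 a list, and fixed genes, of which Bglap and Spp1 were not analysed here. Gdf10, Tgfbr2, Islr, Col11a2, Col13a1, Pdgfra, Gsn, Myh11 and Cspg4 were named outside this rule.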

Additional observations from a re-analysis of the deposited data

Results flagged for a closer look

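Each gene here was flagged because the effect of the GFP fraction differed between day 7 and day 17 by a test of that difference (limma, adjusted p under 0.05). Differences of splits lower at day 17 were -3.88 for Egfl6, -3.86 for Edil3, -3.78 for Sfrp2, -3.66 for Ccn3, -3.54 for C1s1, -3.53 for Ipo13, -3.5 for C1qtnf3, -3.44 for Col8a1, -3.4 for Rhoj, -3.38 for Mxra7, -3.35 for Meox2 and -3.32 for Meg3. The genes named through a list were Ogn at -2.71, Col8a2 at -2.55 and Tagln at -2.48, and a second probe set of Vcam1 had -2.64. Differences higher at day 17 were 3.66 for Cpe, 3.82 for a probe set of Gchfr, 3.57 for one of Ppp1r13b and 5.43 for a second probe set of Phex. In every one of these 20 the 3 day 17 splits lay apart from the 3 day 7 splits, as in all 49 called probe sets. For the genes chosen by size this lack of overlap was a condition of the choice, so it adds no support.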

How the results depend on the processing

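The count of 49 (7 higher, 42 lower) was 32 (4 higher) on the values as deposited, 20 (3 and 17) with no filter, 94 (15 and 79) with the experiment as a fixed replicate block, 226 (58 and 168) with it as a random block and 209 (42 and 167) with the fixed block and Exp106 left out. With the larger pseudocount 12 were higher, and with no variance trend 23 were lower. Leaving out 1 sample or 1 experiment gave 0 to 205 called, 0 to 55 higher and 0 to 150 lower; the highest came without Exp106, and without its GFP-positive sample the count was 125. With a limit of 1.0, 5 splits turned. The day 17 split passed for 704, 1005 and 1007 probe sets under those blocks in the same order, and for 53 (without Exp100) to 774 (without Exp106); the day 7 split passed for 2 with no variance trend, 1 with no filter, 4 without Exp106 and 3 without its GFP-positive sample. The cause of these moves was not tested. Another probe set reversed the sign for Cpe (-0.159), Ell2 (-2.26), Fyn (-1.821), Meg3 (0.189), Slc2a5 (0.543), Cxcl12 (0.17), Col1a1 (-0.248), Ibsp (-0.246) and Ppp1r13b (-0.654). Leaving out samples moved Col1a1 from -0.198 to 0.577 and Col1a2 from -0.127 to 0.481. Over the named genes 980 alternatives kept direction and side of the threshold, 345 lost the call, 69 gained it and 16 reversed. Where arrays were fitted apart, 46 of the 49 passed again.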
